A study of Caenorhabditis elegans with 2 samples.

Results

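The Notch pathway genes described here are 10 C. elegans genes chosen by name for their place in the pathway. They are the receptors lin-12 and glp-1, the DSL ligands lag-2 and apx-1, the proteases and protease partners sup-17, sel-12, hop-1 and aph-1, and the nuclear factors lag-1 and sel-8. A gene was taken when its name stood in the alias column of the table of poly(A) tail lengths, and 8 of the 10 had a row, among 13601 genes in all. No row carried lag-2 or sel-8, so these 2 genes were not analysed here. Of the 8 genes, 5 had at least 100 sequenced tails (tags), the number asked of a gene before it entered a count, and lin-12, hop-1 and apx-1 had fewer.

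Tails were measured by mTAIL-seq, which reads the length of the poly(A) tail at the 3′ end of single RNA molecules, in whole wild-type N2 Bristol animals at the L4 larval stage, grown at 25 °C and collected at 29 h. The labels describe 2 libraries of this 1 group, named as independent biological replicates. The table does not tell the libraries apart, so depth per library is unknown and no value below has a replicate error or a test. Errors are 95% intervals that cover the counting of tags only, and copies made by PCR, if counted, would make them too narrow. Each gene's tails come from all cells of the animal that contained its RNA, and tissues cannot be told apart.

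In Notch signalling, a DSL ligand on one cell binds a Notch receptor on its neighbour. The receptor is then cut outside the membrane by an ADAM protease and within the membrane by gamma-secretase, and the freed intracellular domain joins a DNA-binding CSL protein and a coactivator in the nucleus. In C. elegans, LIN-12 is known for cell-fate choices in the gonad and the vulva, and GLP-1 for keeping germline stem cells in mitosis and for inductions in the early embryo. A poly(A) tail is the run of adenosines added to the 3′ end of an mRNA, bound by poly(A)-binding proteins and shortened by deadenylases.

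The table held 17376490 tags, with tails called between 5 and 231 nt. A tail given as 231 nt, the longest callable value, may have been longer. The 8 Notch pathway genes together held 2036 of all tags, or 117 tags in every 1000000. Across the 8803 genes with at least 100 tags, the typical gene had a median tail of 80 nt (the median of the gene medians) and the middle 50% of gene medians lay between 69 and 91 nt. These are the values against which the Notch pathway genes are set. Markers of tissues were present as the label of whole animals asks, with 38818 tags for the muscle myosin gene unc-54, 3329 for the intestinal gene vha-6, 752 for the hypodermal collagen gene dpy-7, 2079 for the synaptic gene snb-1, 3254 for the germline helicase gene glh-1 and 2445 for the sperm gene msp-40, one of a family of near-identical genes. The yolk protein gene vit-2, abundant in adults, had 110 tags, and the adult cuticle collagen gene col-19 had no row.

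Median tail length ran from 52 nt in hop-1 to 118 nt in lin-12 over the 8 genes. In order from long to short, lin-12 at 118 nt was followed by sup-17 at 100 nt, lag-1 at 91 nt, sel-12 at 84 nt, apx-1 at 83 nt, aph-1 at 82 nt, glp-1 at 74 nt and hop-1 at 52 nt. The interval of lin-12 lay clear of that of sup-17, the next in order, and the interval of hop-1 lay clear of that of glp-1. The other neighbours in the order had intervals that overlapped. Of the 28 pairs of these genes, 15 had intervals that did not overlap, and over all pairs of listed genes the share was 44.0%.

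**Figure D1:**
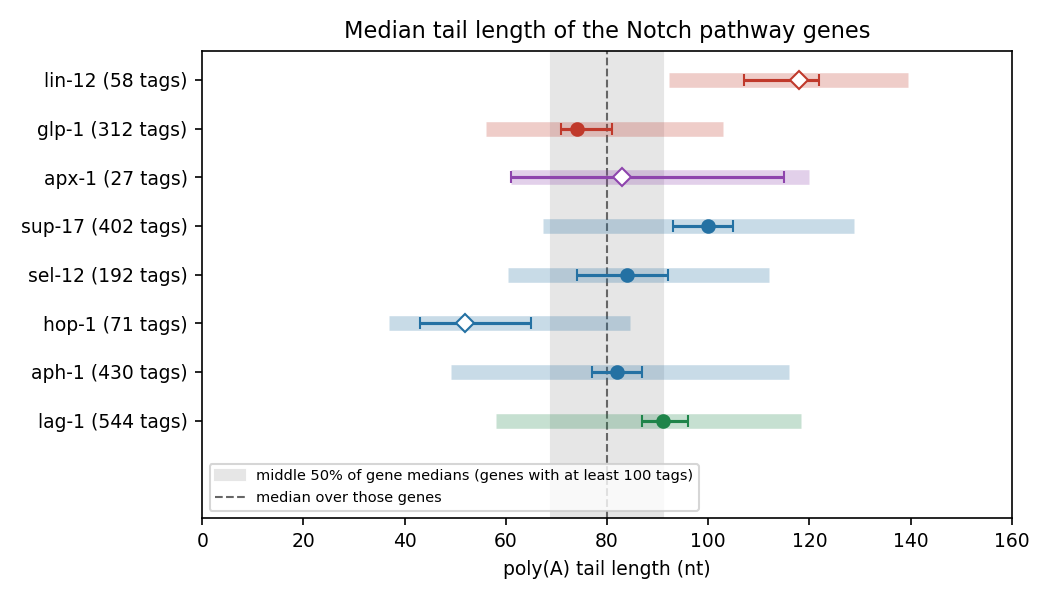
Median poly(A) tail length in nt (points) with exact 95% intervals over tags (thin bars) and the middle 50% of tags (pale bars) for the 8 Notch pathway genes with a row, coloured by role; open diamonds mark genes with fewer than 100 tags. The interval of lin-12 (107 to 122 nt) lies to the right and that of hop-1 (43 to 65 nt) to the left of the median over genes of 80 nt.

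Counted against all genes, 2 of the 5 Notch pathway genes with at least 100 tags, sup-17 and lag-1, had an interval wholly above 80 nt, and 0 of the 5 had one wholly below. The other 3, sel-12, aph-1 and glp-1, had intervals that included 80 nt. Over all 8803 genes 35.0% lay above and 36.7% below by the same measure. A gene was called long or short when its median also stood at least 20 nt from 80 nt. Of the 5 genes 1, sup-17, was called long, at exactly that distance, a call it lost under 4 other settings, and 0 were called short, against 12.6% long and 11.8% short over all genes. The median of the 5 medians was 84 nt. Among the 3 genes with fewer tags, the interval of lin-12 lay above 80 nt and that of hop-1 below it, while that of apx-1 included it. By distance as well, lin-12 met the measure for long and hop-1 that for short. Of all 4798 listed genes with under 100 tags, 18.2% met the first and 6.75% the second. With so few members these shares do not set the group apart from other genes.

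The receptors stood far apart. LIN-12 and GLP-1 are related Notch receptors with overlapping functions, and their genes are close neighbours on chromosome III. The 58 tails of lin-12 (R107.8) ran from 13 to 231 nt, with a median of 118 nt (107 to 122 nt), and the middle 50% lay between 92.3 and 139.5 nt. The 312 tails of glp-1 (F02A9.6) ran from 7 to 192 nt, with a median of 74 nt (71 to 81 nt) and a middle 50% between 56 and 103 nt. The medians thus differed by 44 nt and the intervals did not overlap, as in 44.0% of all pairs of listed genes.

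A tail drawn from lin-12 was longer than one drawn from glp-1 in 79.1% of all pairs of tags, with ties counted as 0.5. Tails over 100 nt made up 69.0% of lin-12 tags (95% Wilson interval 56.2 to 79.4%) and 27.2% of glp-1 tags (22.6 to 32.4%), beside a median of 31.8% over genes with at least 100 tags. Tails under 30 nt made up 1.72% of lin-12 tags, or 1 tag (0.305 to 9.14%), and 2.88% of glp-1 tags (1.52 to 5.39%), beside a median of 6.34% over genes. The interval of lin-12 includes that value and the interval of glp-1 lies below it. At the long end, tails over 150 nt made up 18.97% of lin-12 tags and 1.60% of glp-1 tags, beside 7.48% on average over genes.

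Set among all genes, 98.3% of the 8803 had a lower median than lin-12 and 34.6% a lower median than glp-1. The tag number differed between the receptors, so each was also set among genes of like tag number. Among the 1953 genes with 0.67 to 1.5 times the tags of lin-12, the middle value of the medians was 86.5 nt, and 93.2% of them had a lower median than lin-12. Among the 2577 genes of like tag number to glp-1 the median was 83 nt, and 27.7% had a lower median than glp-1. The middle 50% of glp-1 tails spanned 47 nt, and 16.1% of the genes of like tag number had a narrower one.

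**Figure D2:**
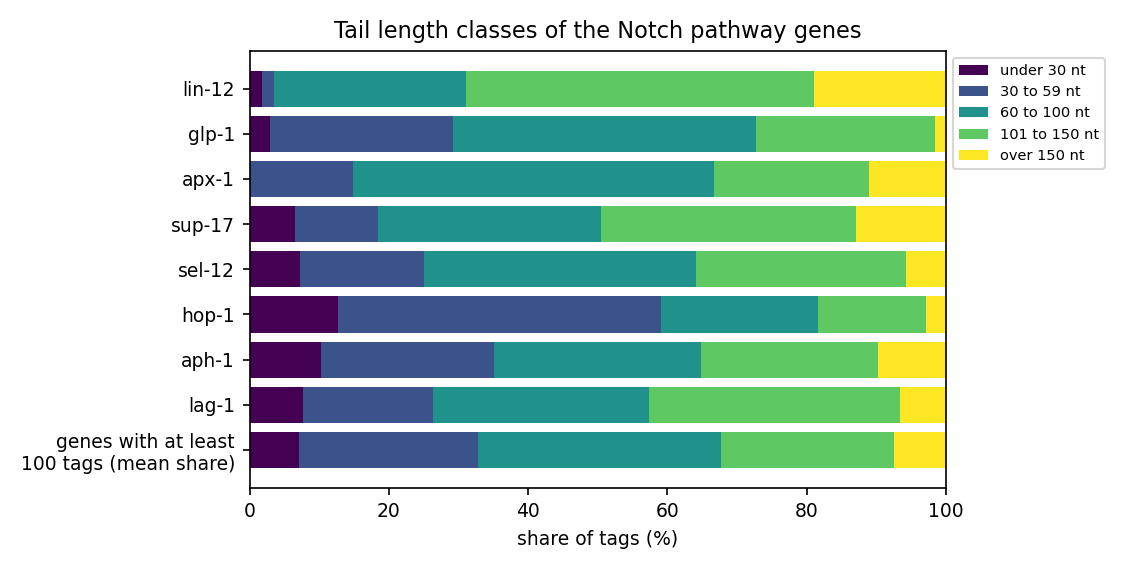
Share of tags (%) in 5 classes of tail length for each Notch pathway gene with a row and, in the lowest bar, the mean share over genes with at least 100 tags. The class of 30 to 59 nt held 46.5% of hop-1 tags and 1.72% of lin-12 tags, and 25.6% on average over genes.

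Of the ligands, only apx-1 could be described, and at low depth. APX-1 is a DSL ligand known from the early embryo, where it signals through GLP-1, and from the vulva, and LAG-2 is the ligand of the distal tip cell, which signals to the germline. The 27 tails of apx-1 (K08D9.3) ran from 33 to 229 nt, with a median of 83 nt (61 to 115 nt). That interval is wider than the middle 50% of all gene medians, so at this depth apx-1 cannot be placed as long or short. Tails over 100 nt made up 33.3% of its tags (18.6 to 52.2%). None of its 27 tails was under 30 nt, and the Wilson interval allows a share of up to 12.5%. RefSeq lists 6 transcripts for apx-1, and the table gives 1 list of tails per gene, so transcripts with different ends were not told apart.

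Medians of the protease genes ran from 52 nt in hop-1 to 100 nt in sup-17. SUP-17 is the ADAM10-type protease that cuts the receptor outside the membrane. The 402 tails of sup-17 (DY3.7) ran from 12 to 231 nt, with a median of 100 nt (93 to 105 nt), and 49.5% exceeded 100 nt (44.6 to 54.4%). Its median was the highest of the 5 Notch pathway genes with at least 100 tags, and 87.4% of the 8803 genes had a lower one. Among the 2462 genes of like tag number, whose median was 82 nt, the share with a lower median was 87.2%. Tails under 30 nt made up 6.47% of sup-17 tags (4.45 to 9.31%), close to the median over genes of 6.34%. Tails of 30 to 59 nt were the class most below the average, at 11.9% of sup-17 tags against 25.6% over genes.

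SEL-12 and HOP-1 are presenilins, alternative catalytic subunits of gamma-secretase, and genetic work in the worm has shown them to be partly redundant. The 192 tails of sel-12 (F35H12.3) ran from 12 to 231 nt, with a median of 84 nt (74 to 92 nt). The 71 tails of hop-1 (C18E3.8) ran from 14 to 166 nt, with a median of 52 nt (43 to 65 nt). The difference was 32 nt and the intervals did not overlap, as in 44.0% of all pairs of listed genes. A sel-12 tail was longer than a hop-1 tail in 68.6% of pairs of tags.

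Tails over 100 nt made up 35.9% of sel-12 tags (29.5 to 42.9%) and 18.3% of hop-1 tags (11.02 to 28.8%). Tails under 30 nt made up 7.29% of sel-12 tags (4.39 to 11.9%) and 12.7% of hop-1 tags (6.81 to 22.4%), intervals that overlap. Tails of 30 to 59 nt made up 17.7% of sel-12 tags and 46.5% of hop-1 tags. Over the 8803 genes, 4.27% had a lower median than hop-1 and 59.0% a lower one than sel-12. Among the 1988 genes of like tag number to hop-1 the median was 87 nt, and 2.41% lay lower than hop-1. Among the 2597 genes of like tag number to sel-12 the median was 85 nt, and 47.5% lay lower.

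APH-1 is a membrane subunit of gamma-secretase needed for its assembly. The 430 tails of aph-1 (VF36H2L.1) ran from 12 to 231 nt, with a median of 82 nt (77 to 87 nt), near the median over genes. Its tails were widely spread. The middle 50% spanned 66.75 nt, from 49.25 to 116 nt, and 82.9% of the 2415 genes of like tag number had a narrower span. Tails under 30 nt made up 10.2% of its tags (7.71 to 13.5%) and tails over 100 nt 35.1% (30.8 to 39.7%).

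With the other gamma-secretase genes of a wider list, pen-2 and the nicastrin gene aph-2, the 5 subunit genes had medians of 82 nt for aph-1, 84 nt for sel-12, 52 nt for hop-1, 81 nt for pen-2 (76 to 89 nt) and 92 nt for aph-2 (86 to 97 nt). The interval of hop-1 lay clear of those of the other 4. Over all pairs of listed genes, the share with intervals that did not overlap was 44.0%. These 5 genes were grouped as a textbook complex after their values were seen.

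**Figure D3:**
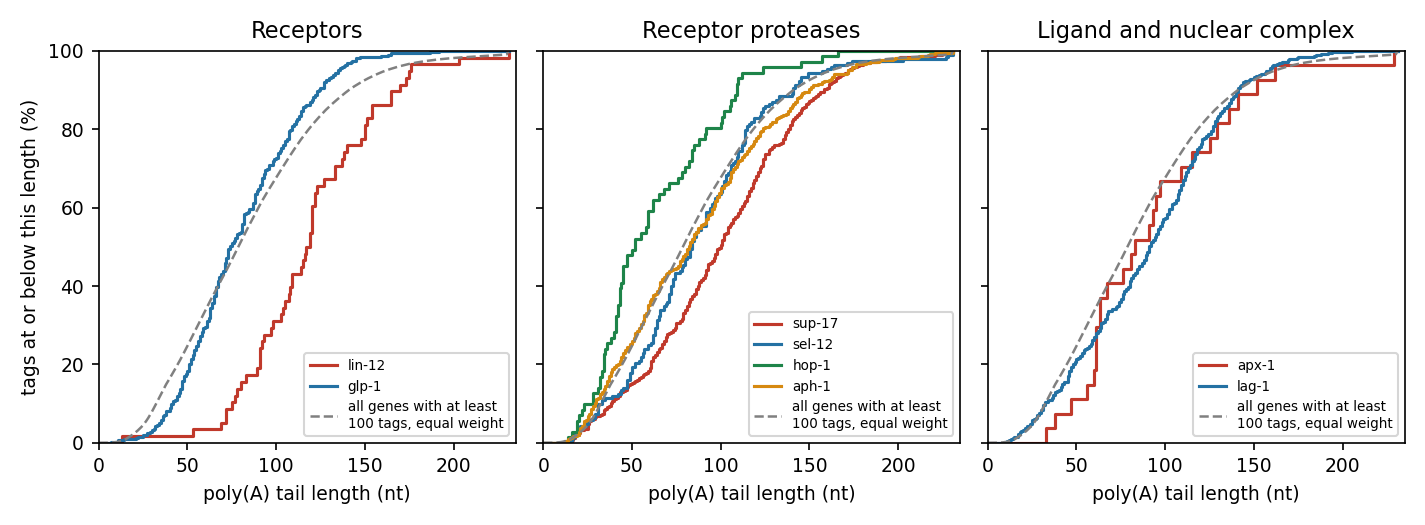
Cumulative share of tags (%) at or below each tail length (nt) for the receptors, the receptor proteases, and the ligand apx-1 with the nuclear factor lag-1; the dashed line is the mean over genes with at least 100 tags. At or below 100 nt lay 31.0% of lin-12 tags and 72.8% of glp-1 tags, and 81.7% of hop-1 tags and 64.9% of aph-1 tags; at the short end the curves cross.

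Of the nuclear factors, lag-1 had a row. LAG-1 is the CSL DNA-binding protein that carries the receptor's intracellular domain to target genes, and SEL-8, also called LAG-3, is the glutamine-rich coactivator with a Mastermind-like role. The 544 tails of lag-1 (K08B4.1), the most of any Notch pathway gene here, ran from 9 to 231 nt, with a median of 91 nt (87 to 96 nt). Tails over 100 nt made up 42.6% of its tags (38.6 to 46.8%) and tails under 30 nt 7.72% (5.76 to 10.3%). Over all genes 73.9% had a lower median, and among the 2244 genes of like tag number, whose median was 81 nt, 74.96% did. RefSeq lists 4 transcripts for lag-1, whose tails were not told apart.

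The shapes of the distributions were compared by the Kolmogorov-Smirnov distance, the largest gap between 2 cumulative curves, from 0 for identical to 1 for separate ones. It was smallest between lag-1 and sel-12, at 0.0888, and largest between lin-12 and hop-1, at 0.613. The distance between the receptors, 0.462, was the next largest. Between sel-12 and hop-1 it was 0.344. Distances of genes with few tags are raised by counting error, so these values describe the pooled tags and are not ranked further.

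**Figure D4:**
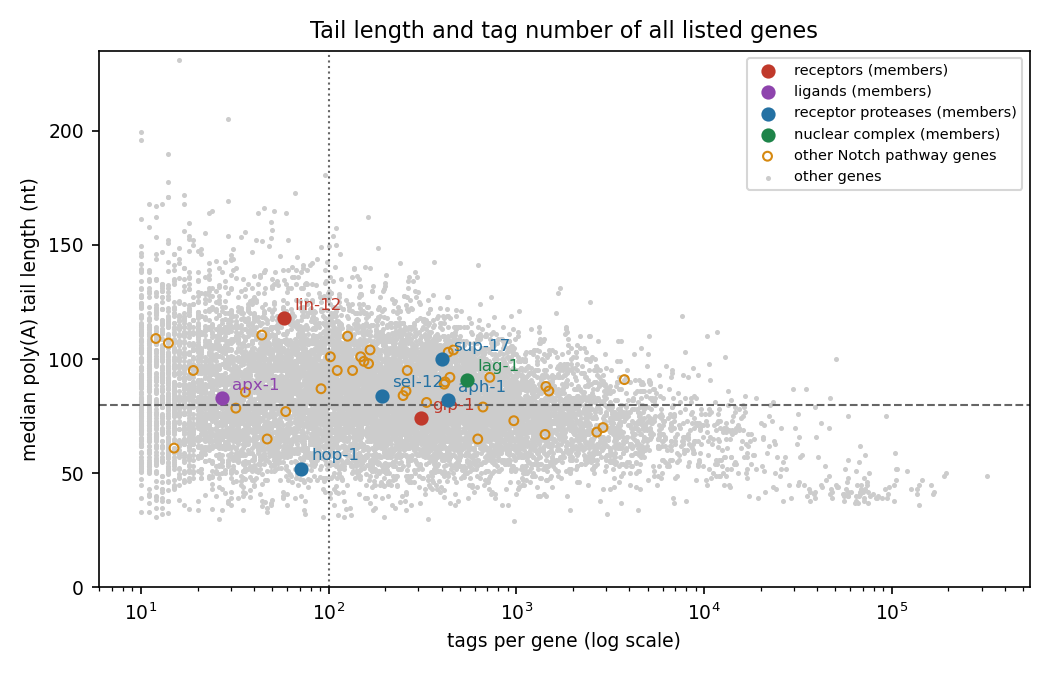
Median tail length (nt) against tags per gene (log scale) for all listed genes (grey), the 8 Notch pathway genes (coloured by role, named) and other Notch pathway genes (open circles). The dashed line marks the median over genes, 80 nt, and the dotted line the minimum of 100 tags; lin-12, hop-1 and apx-1 lie to the left of it, at 58, 71 and 27 tags.

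A wider list of 49 other genes of the pathway, sought by alias alone, held 37 with a row, of which 27 had at least 100 tags. Their medians ran from 65 to 110 nt, with a median of 91 nt, against 80 nt over all genes. Of the 27, 18 had intervals above 80 nt, 5 had intervals below and 4 included it, beside 35.0% above and 36.7% below over all genes. The list was chosen with earlier results of these data known, so these counts describe it and test nothing. By the measure for long, 6 of the 27 were called, and 0 were called short, beside 12.6% and 11.8% over all genes. The 5 below were sel-9, sel-11, tsp-12, emb-5 and lst-3. Genes of like tag number had a median of 72 nt for sel-9, 77 nt for sel-11 and 73 nt for emb-5. For tsp-12 it was 80.5 nt and for lst-3 76 nt. The shares of such genes with a lower median were 42.7% for sel-9, 35.5% for sel-11 and 32.4% for emb-5. They were 14.1% for tsp-12 and 25.3% for lst-3. Of the 6 long genes, 3 were among the 8 transcriptional targets counted and 3 among the 10 trafficking and other modifiers. Ligands and co-ligands, receptor proteolysis, and the nuclear step and turnover had only 3 counted genes each.

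The co-ligand genes osm-11, osm-7 and dos-1 encode secreted proteins that act with DSL ligands. Their medians were 91 nt for osm-11 (90 to 92 nt, 3758 tags), 84 nt for osm-7 (72 to 90 nt, 249 tags) and 95 nt for dos-1 (82 to 107 nt, 134 tags). The first and the last lay above the median over genes. Genes of like tag number had a median of 71 nt for osm-11, 83.5 nt for osm-7 and 85 nt for dos-1. Of these genes, 93.3%, 50.2% and 70.2% had a lower median, in that order. The DSL genes dsl-3, dsl-5 and dsl-7 and the co-ligand gene dos-2 had under 100 tags, and arg-1, dsl-1, dsl-2, dsl-4, dsl-6 and dos-3 had no row.

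In receptor proteolysis, aph-2 was the most abundant and the longest of the 3 genes with enough tags, and pen-2 the shortest. The sperm presenilin gene spe-4, named after its values were seen, had a median of 86 nt (82 to 92 nt, 258 tags). It is counted among these 3 genes, but nothing here shows that it acts on a Notch receptor. The ADAM17-type protease gene adm-4 had under 100 tags.

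Among 10 genes for receptor traffic and other modifiers, 6 lay above 80 nt, 3 below, and 1 included it, where 35.0% of all genes lay above and 36.7% below. With the most tags, sel-9, which encodes a p24 cargo receptor of the secretory pathway, had 2888 and a median of 70 nt (69 to 72 nt). The shortest was the tetraspanin gene tsp-12 at 65 nt (62 to 68 nt), and the longest was the kinase gene sel-5 at 104 nt (98 to 107 nt). Another tetraspanin gene, tsp-14, named after its values were seen, had a median of 103 nt (93 to 112 nt), clear of tsp-12. Over all pairs of listed genes, 44.0% had intervals that did not overlap. The ubiquitin ligase gene sel-11 at 73 nt (70 to 75 nt) and sel-7 at 101 nt (87 to 115 nt), also named after their values were seen, lay below and above.

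For the nuclear step and the turnover of the intracellular domain, emb-5, which encodes an SPT6-like elongation factor, was both the most abundant and the shortest, with 2679 tags and a median of 68 nt (66 to 70 nt). The acetyltransferase gene cbp-1 was the longest at 92 nt (86 to 97 nt). The F-box gene sel-10, whose protein promotes turnover of the LIN-12 intracellular domain, had a median of 89 nt (83 to 97 nt) and was named after its values were seen.

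Of the 8 transcriptional targets with enough tags, 6 had intervals above the median over genes, 1 below, and 1 included it, beside the same 35.0% above and 36.7% below over all genes. Their median was 98.5 nt at a median of 164.5 tags per gene. The most abundant and shortest was lst-3, listed in RefSeq as ccar-1, with 1420 tags and a median of 67 nt (65 to 70 nt). The longest was fbf-2, which encodes a PUF RNA-binding protein of germline stem cells, at 110 nt (98 to 117 nt, 126 tags). The other long targets, named after their values were seen, were lst-2 at 104 nt (96 to 109 nt) and lst-4 at 101 nt (90 to 111 nt), and the germline target lst-1, also named after its values were seen, had a median of 95 nt (89 to 103 nt). Genes of like tag number had a median of 85.5 nt for fbf-2, 85 nt for lst-2 and lst-4, and 83 nt for lst-1. For lst-3 it was 76 nt. The shares of such genes with a lower median were 90.6% for fbf-2, 85.9% for lst-2 and 81.8% for lst-4. They were 76.1% for lst-1 and 25.3% for lst-3. The germline target sygl-1, ref-1 and lip-1 had under 100 tags, and hlh-25 to hlh-29 had no row. Of the anchor cell regulators, hlh-2 and nhr-67 had under 100 tags and egl-43 had no row.

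**Figure D5:**
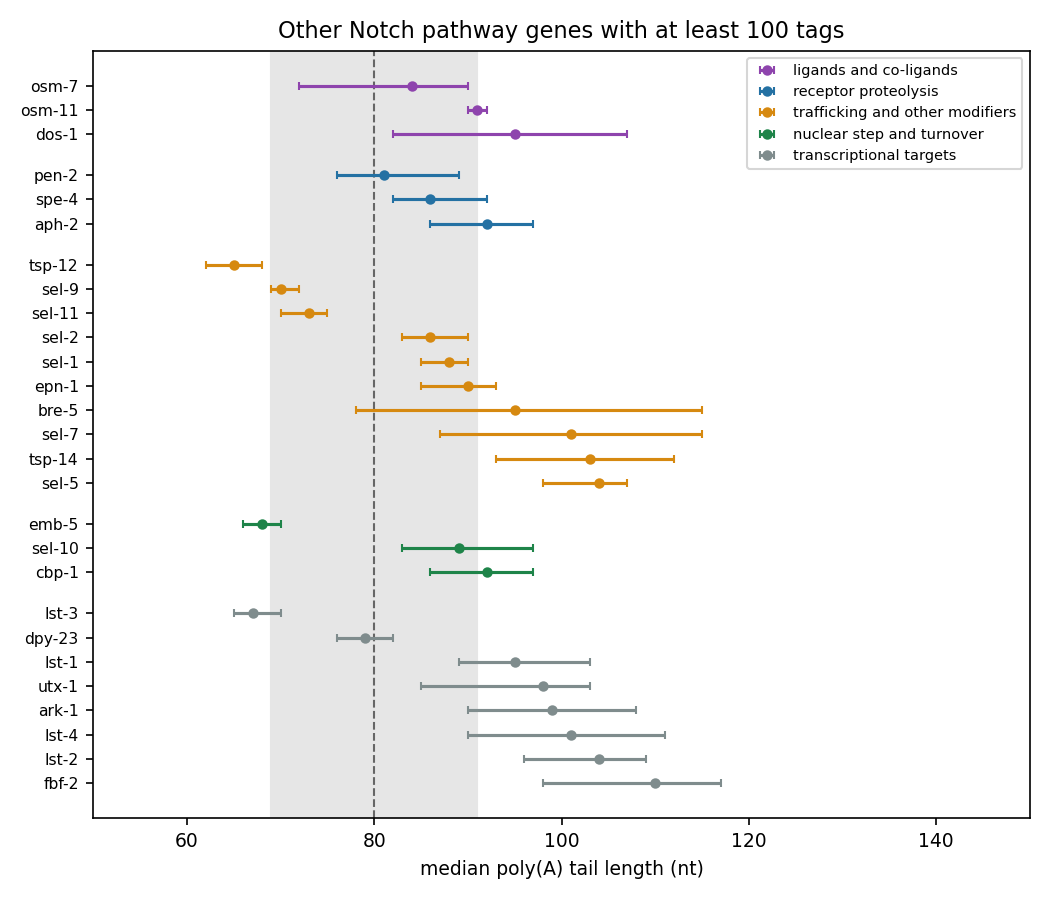
Median tail length (nt) with exact 95% intervals over tags for the 27 other Notch pathway genes with at least 100 tags, grouped by role and ordered by median. The grey band is the middle 50% of gene medians over genes with at least 100 tags and the dashed line their median, 80 nt; 18 intervals lie to the right of the line and 5 to its left.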

How the data were processed

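Per the labels' protocols, tail lengths were called with tailseeker2 from MiSeq fluorescence signals of libraries made from RNA ligated with a splinted 3′ adapter, cut in part with RNase T1 and selected for size. The submitters' processing notes also name STAR and bedtools, with no role or version. No source used here gives the genome build. The deposited counts are tail calls (tags) per gene, not normalized and pooled over 2 libraries, and the deposited table also gives every tail length in nt with its summaries. No source used here says whether tags are distinct molecules. Recomputed counts and medians differed from the table in 0 of 13601 genes. Every listed gene had at least 10 tags.

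Each gene's median received an exact 95% interval from binomial order statistics (Python 3.11.15, numpy 2.4.6, scipy 1.17.1), and shares received Wilson intervals. The centre was the median of gene medians over genes with at least 100 tags. A gene counted as above or below when its interval lay wholly on that side, and as long or short when its median was also at least 20 nt away. Genes of like abundance had 0.67 to 1.5 times the tags. The steps were tested on simulated data. For the intervals and calls, genes of at least 100 tags were drawn from the same distribution, some with a shift. Genes with fewer tags, and other differences between genes, were not covered. The members and the lists were chosen with earlier results of these data known. Named genes were all 10 members and, in each role of the wider list, the gene with most tags and those with the shortest and longest medians, at 100 tags or more; exceptions are marked, apart from the genes counted as below. Rows were sought by alias only, so a gene said to have no row may be listed under another name. Of the 59 names, 58 were found in the RefSeq table of WBcel235 by symbol and 1, lst-3, by sequence name. The table was used for names, transcript numbers and neighbours. The build of the table is not known, so no coordinates are given.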

Additional observations from a re-analysis of the deposited data

How the results depend on the processing

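No paired analysis was possible because the table has 1 column for both replicates of 1 group, and for the same reason leaving out each replicate was not run. With the median over all tags, 58 nt, as the centre, 5 of the 5 genes lay above and 4 were called long, and 0 genes of the wider list lay below, where 85.0% of all genes lay above, 56.3% were long and 5.69% lay below. Without tails at the longest callable value, 0 members were called long, beside 11.5% of all genes. With the mean of log2(tail length + 1) there were also 0, beside 7.38%. By medians sup-17 had stood exactly at the limit of 20 nt. Without tails at the longest callable value its median stood 19 nt above the centre. The cause of its loss by the log2 mean was not tested. Lowering the minimum to 20 tags, or to none, gave 2 members below, glp-1 and hop-1, and 1 called short, hop-1, out of 8 then counted, beside 34% and 31.6% of all genes below and 12% and 12.3% short. The interval of glp-1 ends at 81 nt, and the centre moved to 81.5 or 82 nt. At both minimums 1 member was long, beside 12.9% and 12.4% of all genes, but it was lin-12, and sup-17 lost its call. Raising it to 400 tags put 9 genes of the wider list above, of 15 then counted, beside 40.7% of all genes. The other 38 counts stayed within 1.5 times, which does not say that they held the same genes or the same share. Some rose by exactly 1.5 times. With 58 nt as the centre, genes of the wider list above rose from 18 to 27, of 27 counted, beside 85.0% of all genes. At 400 tags, members above rose from 2 of 5 to 3 of 3, beside 40.7% of all genes. Of 64 values of single members, 4 moved beyond their interval, 3 of them shares under 30 nt once tails under 20 nt were left out. The fourth was lag-1, 5.88 nt above the centre by means and 11 nt by medians. Leaving out tails under 20 nt can lower a share under 30 nt but cannot raise it. Few tags limit lin-12, hop-1 and apx-1 most.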

Other observations

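The genes lin-12 and glp-1 lie on the same chromosome with 6 annotated protein-coding genes between them. The 4 of these with a row had medians between 39 and 78 nt, beside 118 nt for lin-12 and 74 nt for glp-1, and 3 of the 4 had at least 100 tags, the fewest being 13. Since 98.3% of the genes with at least 100 tags, and 95.8% of all listed genes, had a lower median than lin-12, nothing is read from this. Likewise 6 protein-coding genes lie between lag-2 and apx-1, and the 5 with a row had medians between 79 and 115 nt, beside 83 nt for apx-1, with 13 to 436 tags.

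Tail length distributions most like those of the receptors were sought among 3732 genes with at least 500 tags. For lin-12, whose median Kolmogorov-Smirnov distance to these genes was 0.465, the nearest were H40L08.2 at 0.0916, smd-1, an S-adenosylmethionine decarboxylase gene, at 0.0921 and the ferritin gene ftn-1 at 0.0938, the last 2 with medians of 112 and 113 nt. For glp-1, with a median distance of 0.154, they were the ABC transporter gene pgp-6 at 0.0312, T24H7.2 at 0.0329 and the nuclear pore gene npp-12 at 0.0334, with medians of 76, 75 and 77 nt. The distances were read in 1 pool and say nothing of shared function. Those of lin-12, with 58 tags, are raised by counting error. Its nearest distances differ little, so nothing is read from which genes came nearest to it.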
